A study of Mus musculus with 8 samples.

Results

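The left and right heart fields of the mouse embryo were examined here for 10 transcription factor genes of the juxta-cardiac and inflow field, chosen by name: *Tbx5*, *Mab21l2*, *Hand1*, *Osr1*, *Foxf1*, *Tbx18*, *Tbx20*, *Wt1*, *Tbx2* and *Tbx3*. All 10 were found among the 48526 genes of the count table, and 8 of them were among the 9744 genes that passed the filter on low counts. The 8 libraries are a left and a right one from each of 4 male C57bl6/J embryos with a Wild-type genotype at stage E8.5f, called L29-3, L43-5, L46-8 and L49-3. No allele was altered and no agent was given in any group. Each library is a mixed piece of tissue from 1 side of a single animal, reaching down to the second somite, and neither the heart tube nor dorsal tissue was meant to be part of it.

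In such a piece, fewer cells of a type and less RNA per cell cannot be told apart. The piece was checked against markers. All 10 second heart field markers were tested, at a summed level of 1078 to 1441 normalized counts (reads divided by the DESeq2 size factor of the library), and none of them was at 0 reads. Cardiomyocyte markers were present as well although the heart tube had been removed, at 888.7 to 7262 normalized counts, whereas *Nppa*, a marker of chamber myocardium, had 1 read in all. Total counts ranged from 1147446 to 3520753 per library, and both L49-3 libraries were the shallowest. A count of 0 allows up to 4.986 normalized counts in the shallowest library and 1.601 in the deepest, for counting error only.

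The juxta-cardiac field is a strip of mesoderm at the border of the cardiac crescent. It is marked by *Mab21l2* and *Hand1* and is known to give rise to cardiomyocytes and to the epicardium. The inflow or posterior part of the heart field expresses *Tbx5* and forms the atria and the sinus venosus. T-box proteins share the DNA-binding domain that names them, and some, such as TBX5 and TBX20, are known for activating cardiac genes, whereas TBX2 and TBX3 repress chamber genes in the conduction system and the atrioventricular canal.

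Since 5 of the 10 genes are T-box paralogues, their coding sequences were compared to see whether reads could be shared between them. The 60 aligned bases that were most alike, within a single exon of each gene, are shown from 5′ to 3′ in the sense of the gene, with capitals at bases that differ from the most frequent base of the column:
Tbx5: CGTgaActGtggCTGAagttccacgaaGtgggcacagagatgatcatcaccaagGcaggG
Tbx18: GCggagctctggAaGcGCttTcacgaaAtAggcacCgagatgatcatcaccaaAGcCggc
Tbx20: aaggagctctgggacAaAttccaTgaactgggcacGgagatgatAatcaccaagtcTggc
Tbx2: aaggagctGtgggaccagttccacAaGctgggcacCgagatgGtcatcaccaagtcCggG
Tbx3: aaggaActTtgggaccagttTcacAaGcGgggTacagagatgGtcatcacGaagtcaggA
These stretches lie in GRCm38 at chr5:119838729-119838788 (plus strand), chr9:87729463-87729522 (minus), chr9:24770682-24770741 (minus), chr11:85833440-85833499 (plus) and chr5:119672343-119672402 (plus), respectively. Where the most frequent base of a column was tied, the first in the alphabet was taken and the other is in capitals. Of the 60 columns, 33 were identical in all 5 genes. The most alike pair, *Tbx2* and *Tbx3*, had 51 of 60 bases in common, and *Tbx18* and *Tbx3* had 39. The longest exact run shared by the coding sequences of any pair was 21 bases, between *Tbx18* and *Tbx20*. The paralogues therefore differ within the length of a paired read in their coding parts.

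Overlaps with other genes leave some members less certain. The single exon block of *Mab21l2* shares 1097 bases with exons of *Lrba* on the opposite strand, to which 636 reads were assigned in all, against 272 for *Mab21l2*. *Tbx18* shares 970 exon bases with an opposite-strand gene that had 3 reads. *Tbx20* has a stretch, at least 90% identical over at least 100 bases, in common with 121 other genes. The cDNA was oriented, but the strand setting of the counting is not given in the sources used here.

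Promoters of 3 of the 10 genes, *Mab21l2*, *Tbx18* and *Tbx20*, were taken from RefSeq. The 250 bases before the start of *Tbx20* and *Tbx18* are shown as those of the T-box members with the highest and the lowest normalized counts. The half-site that T-box proteins bind was searched as GTGTGA on both strands. The motif of the zinc finger partners of these proteins was searched as AGATAA, also on both strands. The E-box, which factors such as HAND1 bind with their partners, was searched as CATCTG in the same way. No matches of different motifs overlapped in the windows shown, where capitals mark a match:
Tbx20: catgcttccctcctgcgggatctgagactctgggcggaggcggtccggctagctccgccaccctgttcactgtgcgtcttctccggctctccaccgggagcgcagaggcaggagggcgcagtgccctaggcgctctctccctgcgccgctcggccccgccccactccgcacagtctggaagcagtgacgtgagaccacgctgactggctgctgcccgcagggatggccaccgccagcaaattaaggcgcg
Tbx18: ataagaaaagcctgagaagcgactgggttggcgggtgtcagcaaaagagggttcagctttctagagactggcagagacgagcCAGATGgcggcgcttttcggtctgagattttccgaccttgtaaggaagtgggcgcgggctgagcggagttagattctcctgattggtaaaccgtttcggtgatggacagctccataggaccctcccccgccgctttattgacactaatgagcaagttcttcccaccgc
They lie at chr9:24774304-24774553 and chr9:87731261-87731510 of GRCm38.p6, both on the minus strand. None of the 3 motifs was found in the *Tbx20* window, and an E-box match was found for *Tbx18*. In windows of this kind over 32851 promoters, 12.3% held the T-box half-site, 9.99% the zinc finger motif and 14.4% the E-box. The window of *Mab21l2* lies within its annotated exon in GENCODE and held 1 match to the T-box half-site. A match is a string of letters only, and the promoters bear on no test below.

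*Tbx5* (ENSMUSG00000018263, chromosome 5 from 119832668 to 119885219, plus strand) is required for the formation of the atria and the posterior heart field. Its normalized counts, left then right, were 120.0 and 159.7 for L29-3, 89.97 and 139.3 for L43-5, 163.6 and 118.0 for L46-8, and 20.1 and 19.9 for L49-3. Both L49-3 libraries lay far below the other 6, and neither side was always the higher. The mean of the left libraries was 98.4 ± 60.3 (SD, n = 4 embryos) and that of the right ones 109 ± 61.9. Averaged over both sides, L49-3 had 20.03 normalized counts against 115 to 141 in the other embryos, from 13 and 12 reads.

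**Figure D1:**
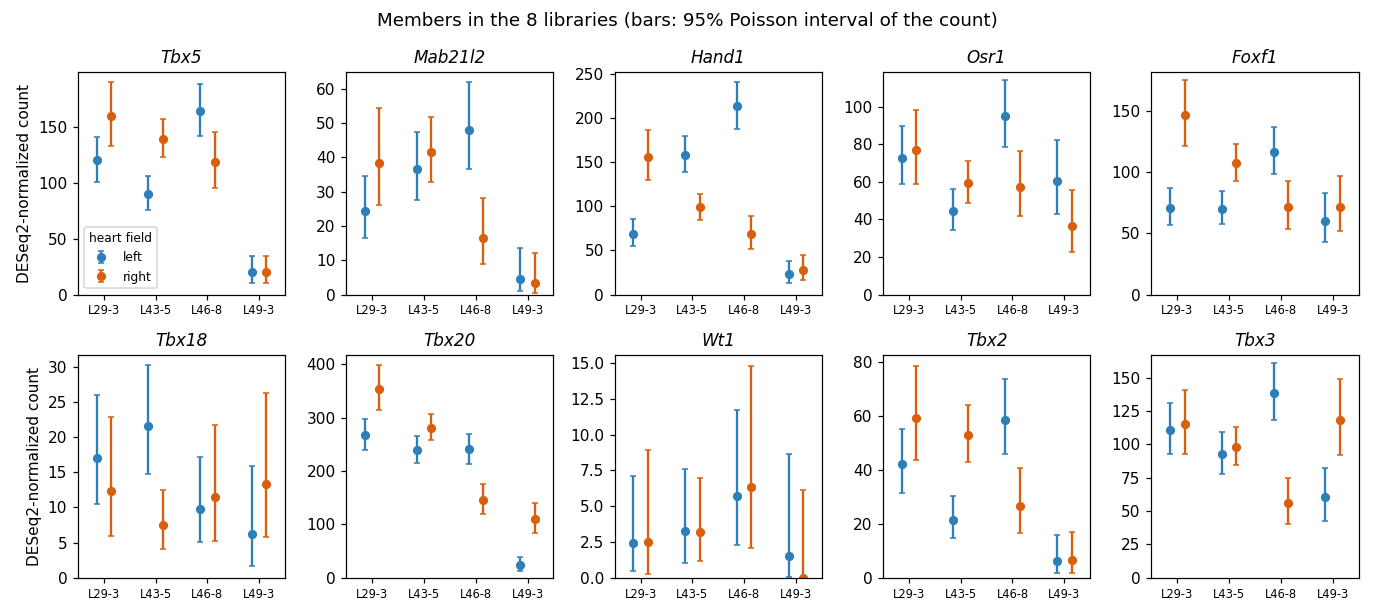
Normalized counts of the 10 genes (vertical axes, each with its own scale from 0) in the left (blue) and right (orange) library of the 4 embryos (horizontal axes), with bars for the 95% Poisson interval of each count. *Tbx5*, *Mab21l2*, *Hand1*, *Tbx20*, *Tbx2* and *Wt1* are lowest in both L49-3 libraries, *Wt1* from 1 and 0 reads there. In L46-8 the left point is above the right one for all genes but *Tbx18* and *Wt1*.

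*Mab21l2* (ENSMUSG00000057777, chromosome 3 from 86545581 to 86548629, minus strand), the marker of the juxta-cardiac field, was a gene of low counts. It had 24.3 and 38.4 normalized counts in L29-3, 36.5 and 41.6 for L43-5, 48.0 and 16.5 for L46-8, and 4.6 and 3.3 for L49-3. The L49-3 values rest on 3 and 2 reads and are at or under the level that a count of 0 allows there. *Mab21l2* reached 20 normalized counts in 5 libraries, where 4 were required, and the other 3 were the 2 of L49-3 and the right one of L46-8.

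*Hand1* (ENSMUSG00000037335, chromosome 11 from 57828705 to 57832818, minus strand) encodes a basic helix-loop-helix factor of the juxta-cardiac field and the outer curvature of the left ventricle. It had 68.9 and 156.0 normalized counts in L29-3, 158.4 and 98.7 for L43-5, 213.2 and 68.5 for L46-8, and 23.2 and 28.3 for L49-3. The higher side alternated between embryos, by 2.25-fold towards the right in L29-3 (95% interval from counting 1.70 to 3.00) and by 3.09-fold towards the left in L46-8 (2.30 to 4.23). Both L49-3 libraries were again below the other 6.

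*Osr1* and *Foxf1* mark the posterior second heart field and the splanchnic mesoderm. *Osr1* (ENSMUSG00000048387, chromosome 12 from 9570116 to 9581500, plus strand) had 73.0 and 76.8 normalized counts in L29-3, 44.3 and 59.2 for L43-5, 95.2 and 57.1 for L46-8, and 60.4 and 36.6 for L49-3. *Foxf1* (ENSMUSG00000042812, chromosome 8 from 121084386 to 121088144, plus strand), a target of Hedgehog signaling, had 70.5 and 146.1, 69.8 and 107.3, 116.4 and 71.1, and 60.4 and 71.5 in the same order. For both genes the L49-3 libraries overlapped those of the other embryos, unlike for *Tbx5*, *Mab21l2* and *Hand1*.

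*Tbx20* (ENSMUSG00000031965, chromosome 9 from 24718138 to 24774303, minus strand), needed for growth of the heart tube, had 266.7 and 354.1 normalized counts in L29-3, 239.9 and 281.2 for L43-5, 240.9 and 145.9 for L46-8, and 23.2 and 109.7 for L49-3. Here too both L49-3 libraries were the lowest, and they differed from each other. The log2 ratio of left over right was -2.20 there. From 15 reads on the left of L49-3 against 66 on its right, *Tbx20* showed a 4.75-fold difference with a 95% interval from counting of 2.68 to 8.93. For *Tbx5*, 13 reads on the left of that embryo stood against 12 on its right, a right to left ratio of 0.997 (0.417 to 2.37).

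*Tbx2* and *Tbx3* encode the related repressors of chamber genes. *Tbx2* (ENSMUSG00000000093, chromosome 11 from 85832551 to 85841948, plus strand) had 42.2 and 59.4 normalized counts in L29-3, 21.5 and 52.8 for L43-5, 58.6 and 26.6 for L46-8, and 6.2 and 6.6 for L49-3, the last from 4 reads on each side. *Tbx3* (ENSMUSG00000018604, chromosome 5 from 119670669 to 119684724, plus strand) had 111.1 and 115.1, 92.6 and 98.2, 138.4 and 55.8, and 60.4 and 118.0. *Tbx2* was lowest in L49-3, whereas the right L49-3 library was the second highest of the 8 for *Tbx3* and the lowest value was on the right of L46-8.

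*Tbx18* and *Wt1*, which mark the sinus venosus and the epicardium that forms later, were at the bottom of the range and outside the tested genes. *Tbx18* (ENSMUSG00000032419, chromosome 9 from 87702800 to 87731260, minus strand) had 4 to 33 reads and 6.2 to 21.5 normalized counts, with a median of 11.9. *Wt1* (ENSMUSG00000016458, chromosome 2 from 105126529 to 105173616, plus strand) had 0 to 7 reads, 29 in all 8 libraries. Without a filter, edgeR's quasi-likelihood test gave an unadjusted p of 0.206 for the sides and 0.563 for the embryos for *Tbx18*, and 0.895 and 0.254 for *Wt1*.

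Levels were ordered among genes per kb of annotated exon. *Hand1* was highest at 51.0 normalized counts per kb (mean of 8 libraries), followed by *Foxf1* at 36.9, *Osr1* at 30.4, *Tbx5* at 22.2, *Tbx20* at 17.3, *Tbx3* at 14.9, *Tbx2* at 9.45, *Mab21l2* at 8.75, *Tbx18* at 2.62 and *Wt1* at 0.504. The step from *Tbx3* to *Tbx2* and that from *Tbx18* to *Wt1* held in all 8 libraries. The other neighbours changed places in at least 1 library, so that their order did not hold throughout. *Mab21l2* was above *Tbx18* in 7 libraries, and the exception was the right one of L49-3, where *Mab21l2* had 2 reads. *Tbx20* moved from the fifth to the second place when the mean transcript length was used, because its annotated exons add up to 11997 bases against a mean transcript of 3094 bases.

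**Figure D2:**
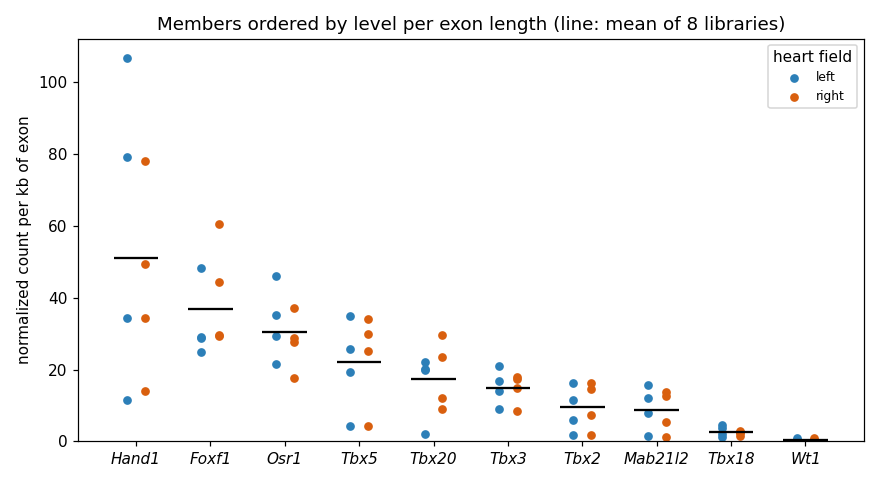
Normalized counts per kb of exon (vertical axis) of the 10 genes (horizontal axis), a point for each left (blue) and right (orange) library and a line at the mean of 8. *Hand1* has the widest range, from 11.6 to 107, and *Tbx18* and *Wt1* have the lowest means, 2.62 and 0.504.

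To ask whether any of these genes was asymmetric between the left and right heart field, the sides were compared with the embryo as a block, by the quasi-likelihood test of edgeR. None of the 8 tested members had an adjusted p under 0.05, as against 0.0103% of all genes tested, a single gene, and none had an unadjusted p under 0.05, against 4.36% of all genes tested. DESeq2 and limma-voom gave 0 members at either level as well, with 65 and 457 of all genes at an unadjusted p under 0.05. None of the members reached the threshold of the study in edgeR either, which 3.05% of all genes tested passed. That threshold asks for a fold of 1.2 or more in either direction and an unadjusted p no higher than 0.05. The study listed genes that passed it with any of limma-voom, DESeq2 and edgeR. DESeq2 and limma-voom gave 0 members past it here as well. The log2 fold changes, left minus right, ranged from -0.34 for *Foxf1* (standard error 0.225, unadjusted p of 0.154 from edgeR) to 0.35 for *Hand1* (standard error 0.334, unadjusted p of 0.314), with a median of -0.06 for the 8 members and 0.00 over all genes tested. A change of the same direction in all 4 embryos was found for 0 of 8 members and for 12.4% of all genes tested. An exact permutation test that flips the signs of 4 pairs cannot go below a two-sided p of 0.125.

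The absence of a call went with ratios of opposite sign in different embryos. In L46-8 all 8 tested members were higher on the left, with a median log2 ratio of 0.91. In L29-3, 0 of 8 were higher on the left and the median was -0.44, and in L43-5, 1 of 8 with a median of -0.32, while the median over all genes tested lay between 0.00 and 0.01 in each of the 4 embryos. *Mab21l2* was 2.89-fold higher on the left of L46-8 (95% interval from counting 1.57 to 5.75), *Tbx3* 2.46-fold (1.76 to 3.51) and *Tbx2* 2.19-fold (1.33 to 3.74). On the right of L43-5, *Tbx2* was 2.46-fold higher (1.64 to 3.76) and *Tbx5* 1.55-fold (1.25 to 1.92), and on the right of L29-3 *Foxf1* was 2.06-fold higher (1.55 to 2.75).

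Counted at a fold of at least 1.5, with no test within an embryo, the left side of L46-8 was higher for 7 of 8 members, all but *Tbx5*, against 5.82% of all genes tested, and its right side for 0 of 8 against 5.82%. The right side of L29-3 was higher for *Mab21l2*, *Hand1* and *Foxf1*, 3 of 8 against 3.51%, and its left side for 0 of 8 against 4.44%. In L43-5 the right side was higher for *Tbx5*, *Foxf1* and *Tbx2*, 3 of 8 against 3.41%, and the left side for *Hand1*, 1 of 8 against 2.39%. L49-3 had *Osr1* on the left, 1 of 8 against 6.68%, and *Tbx20* and *Tbx3* on the right, 2 of 8 against 7.46%. By sign alone, all 8 tested members were higher on the left of L46-8. In L29-3 and L43-5 all were higher on the right, except *Hand1* in L43-5. Most of those differences to the right stayed under this fold, and the log2 ratios of *Tbx3* were only -0.05 and -0.08.

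**Figure D3:**
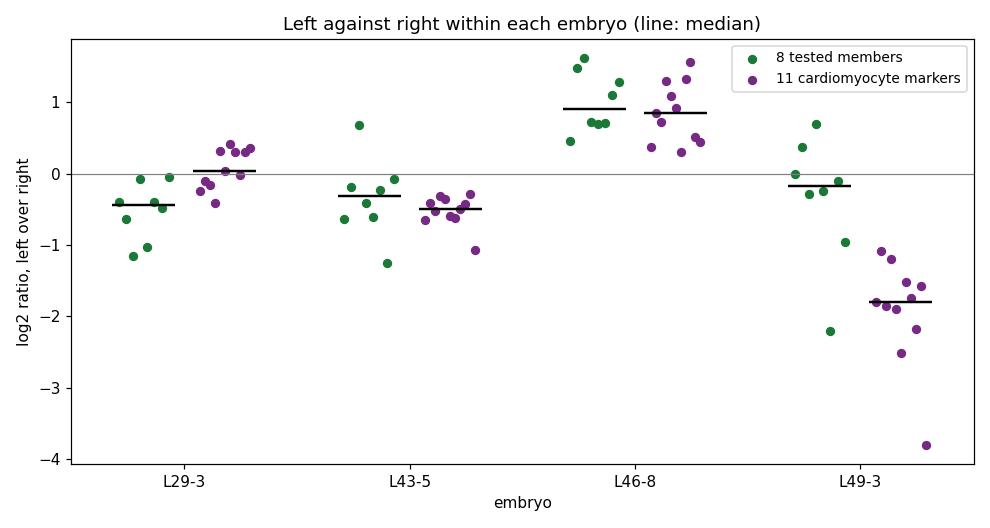
Log2 ratio of left over right (vertical axis) in each embryo (horizontal axis) for the 8 tested members (green) and 11 cardiomyocyte markers (purple), with a line at the median. All members are above 0 in L46-8, and the members spread from -2.20 to 0.70 in L49-3, where all cardiomyocyte markers are below 0.

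Cardiomyocyte markers moved between the sides too. Their median log2 ratio was 0.04 for L29-3, -0.49 for L43-5, 0.85 for L46-8 and -1.80 for L49-3, and 7 of 11 passed a fold of 1.5 towards the left in L46-8. Their summed level on the left was 1.89 times that on the right in L46-8, 1.07 times in L29-3 and 0.707 times in L43-5. Foregut endoderm markers had sums of 1356 to 1783 normalized counts in the 8 libraries, surface ectoderm 1143 to 1692, endothelium 525.1 to 919.7 and cranial neural crest 725.8 to 1118. Neural tube markers had 676.7 to 1486, with left to right ratios of 1.12, 0.620, 0.741 and 0.902 in L29-3, L43-5, L46-8 and L49-3. Paraxial mesoderm markers had 430.3 to 791.8, with ratios of 1.26, 0.645, 0.785 and 1.12 in the same order. None of the genes in these lists was at 0 reads in all libraries. Their part in the ratios of the members was not tested.

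The sides were also compared with each embryo left out. Without L46-8, the embryo in which all 8 members were higher on the left, a shift of the members to the right follows in part from the choice of the embryo, and the counts are a description. *Tbx5*, *Foxf1*, *Tbx20* and *Tbx2* then passed the threshold of the study as higher on the right, 4 of 8 members against 3.89% of all genes tested, with log2 fold changes of -0.48, -0.69, -0.52 and -0.84. In the same fit 5 of 11 cardiomyocyte markers and 9 of 26 companion genes, a list described below, passed it. Without L29-3, *Hand1* passed it as higher on the left at a log2 fold change of 0.93 and an unadjusted p of 0.00173 from edgeR, 1 of 8 members against 3.64%. A single embryo thus decided which members passed and in which direction.

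To ask whether the embryos differed by more than the sides of an embryo, the 3 embryo terms of the same fit were tested together. This test was chosen with the low values of *Tbx5* and *Mab21l2* in L49-3 already known. *Tbx5* was called, at an adjusted p of 0.0201 in the quasi-likelihood F test of edgeR, 1 of 8 members against 0.174% of all genes tested. With limma-voom its adjusted p was 0.116 and no member was called. The alternatives tried gave adjusted p from 1.42e-23, in edgeR with no filter, to 0.980, in edgeR without L49-3. With no filter, 641 genes were called, against 17 with it. With the filter and all 4 embryos, edgeR gave an unadjusted p under 0.05 for *Tbx5*, *Mab21l2*, *Hand1*, *Tbx20* and *Tbx2*. These were 5 of 8 against 9.99% of all genes, and 10 of 11 cardiomyocyte markers passed too. The adjusted p of these members was 0.170 for *Mab21l2*, 0.268 for *Hand1*, 0.115 for *Tbx20* and 0.217 for *Tbx2*. *Osr1*, *Foxf1* and *Tbx3* did not pass, with adjusted p of 0.584, 0.769 and 0.948.

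The same 5 members had both L49-3 libraries below the other 6, 5 of 8 against 9.44% of all genes tested, and none had both above them, against 7.83%. Of the other 6 libraries, the right one of L46-8 was the lowest for *Mab21l2*, *Tbx20* and, by a small margin, *Hand1*. For *Tbx5* and *Tbx2* the lowest of them was the left one of L43-5. That *Tbx5* and *Mab21l2* are low in L49-3 was known when the embryo test was chosen. Its p-values for the members and the size of the difference are therefore a description. Fitted against the mean of the other 3 embryos, L49-3 was 6.52-fold lower for *Tbx5*, a log2 difference of -2.71 ± 0.30 (standard error). The log2 difference was -3.06 ± 0.63 (standard error) for *Mab21l2*, -2.75 ± 0.61 for *Tbx2*, -2.29 ± 0.54 for *Hand1* and -1.96 ± 0.36 for *Tbx20*. It was -0.21 ± 0.31 for *Tbx3*, -0.46 ± 0.27 for *Osr1* and -0.55 ± 0.30 for *Foxf1*. In reads alone, *Mab21l2* had 5 in L49-3 and 267 in the other embryos, an 8.92-fold difference after scaling with a 95% interval from counting of 3.78 to 27.7, and *Tbx2* had 8 and 325, a 6.79-fold difference (3.40 to 15.9). The 8 members thus fell into a set of 5 at 3.90-fold to 8.36-fold lower and a set of 3 at 1.15-fold to 1.46-fold lower, with a median of -2.12 for the members and 0.00 over all genes tested.

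**Figure D4:**
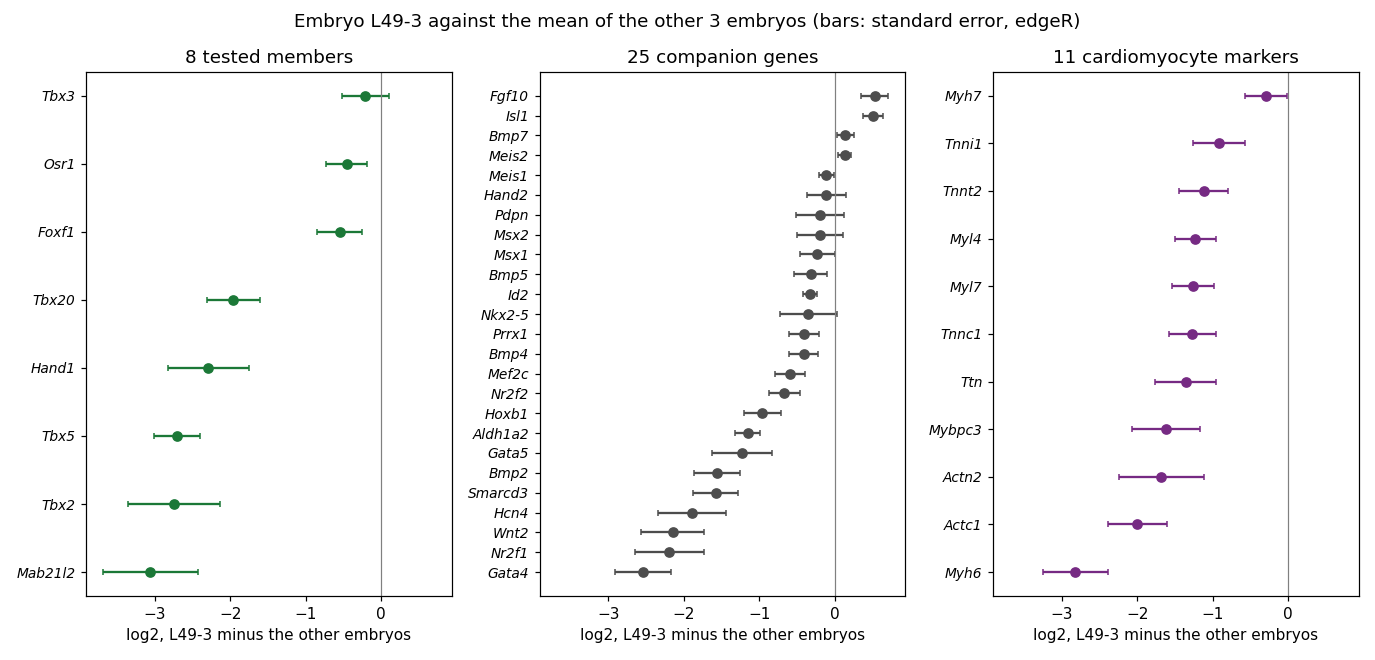
Log2 difference of L49-3 from the mean of the other 3 embryos (horizontal axes, bars for the standard error from edgeR) for the 8 tested members (left), 25 of the 26 companion genes tested (middle) and 11 cardiomyocyte markers (right). *Tbx3*, *Osr1* and *Foxf1* lie between -0.55 and -0.21, and the other members at or below -1.96.

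Without L46-8, the embryo test called all 5 of these members at an adjusted p under 0.05, 5 of 8 against 2.42% of all genes tested, along with 9 of 11 cardiomyocyte markers and 8 of 26 companion genes. Over all genes, 236 were called in that fit and 17 with all 4 embryos. The side ratios of L46-8 ran against those of L29-3 and L43-5, so its omission lowers the disagreement between sides. The count of members there follows in part from that choice and is a description. Without L49-3, the embryo test called 0 members at that level and 0 genes in all, with 1 member (*Tbx20*) and 426 genes at an unadjusted p under 0.05, and the adjusted p of *Tbx5* was 0.980. The call of *Tbx5* by edgeR is thus lost without L49-3.

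Other features of L49-3 moved with these members. Its libraries were the shallowest, and its cardiomyocyte markers had a summed level of 888.7 on the left and 2927 on the right, against 2490 to 7262 in the other embryos. The median log2 difference of these 11 markers was -1.27, from -2.82 for *Myh6* to -0.29 for *Myh7*, and 2 of 11 had both L49-3 libraries below the other 6. *Myh6*, the alpha myosin heavy chain and the lowest of them, had 40.3 and 234.3 normalized counts there and a log2 difference of -2.82 ± 0.43 (standard error), and its embryo test in edgeR gave an adjusted p of 0.0470. All 11 cardiomyocyte markers were at least 1.5-fold higher on the right of L49-3. *Tbx20* was higher on the right there too, and a difference between the members in this ratio was not tested. The right to left ratio of *Hand1* was 1.22 with an interval from counting of 0.575 to 2.63, and those of *Mab21l2* and *Tbx2* rest on 5 and 8 reads, with intervals so wide that they hold the ratio of *Tbx20*. Neural tube markers were higher in L49-3 by a median of 1.02 on the log2 scale, and second heart field markers by 0.32, from -0.65 to 0.53. Endothelium markers had a median of -0.55, from -1.13 to 0.49. The median was 0.48 for paraxial mesoderm, 0.16 for cranial neural crest, 0.09 for foregut endoderm and -0.19 for surface ectoderm. The part of dissection, stage, depth and cell makeup in the L49-3 values was not tested.

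The genes with the profile nearest to *Tbx5* over the 8 libraries were *Tbx2*, *Gm14226* and *Atp1b1*, with root mean square differences of centred log2 values of 0.266, 0.275 and 0.292, against a median of 1.18 over all genes tested. *Atp1b1*, a subunit of the sodium pump, had 77.8 and 87.9 normalized counts in L29-3, 62.6 and 61.9 for L43-5, 65.9 and 64.7 for L46-8, and 12.4 and 15.0 for L49-3, with an embryo test in edgeR at an adjusted p of 0.0201. Its level was alike on both sides, whereas *Tbx2* shared with *Tbx5* the higher right side in L43-5 and the higher left side in L46-8. The *Tbx5* profile itself had a root mean square of 1.17, which is the difference that a flat profile would have. A gene low in both L49-3 libraries is thus nearer than the median, and the values of *Tbx2* there rest on 4 reads on each side. Those of *Gm14226* in L49-3, 3.1 and 3.3 normalized counts, are under the level that a count of 0 allows. The points share their libraries and depth.

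A list of 32 other genes of the juxta-cardiac and inflow region, ligands, transcription factors and channels, had 26 tested genes. None of them had an adjusted p under 0.05 for the sides or for the embryos from edgeR, whereas 13 had an unadjusted p under 0.05 for the embryos. At an adjusted p under 0.05 for the embryos, DESeq2 called 3 of the 26 (*Aldh1a2*, *Nr2f1* and *Smarcd3*) and limma-voom 0, and neither called any for the sides. Between the sides, 19 of the 26 were higher on the left in L46-8, 7 in L29-3, 7 in L43-5 and 8 in L49-3. At a fold of at least 1.5, the left of L46-8 was higher for 11 against 5.82% of all genes tested, and its right for 0. The right of L29-3 was higher for 5 against 3.51%, and its left for 1 against 4.44%. In L43-5 the right was higher for 4 against 3.41%, and in L49-3 for 8 against 7.46%. Both L49-3 libraries were below the other 6 for 10 of 26 and above them for 1. The median log2 difference of L49-3 was -0.38, with a range from -2.54 to 0.53. *Mab21l1*, the paralogue of *Mab21l2*, had 0 reads in all libraries, which allows up to 4.986 normalized counts in the shallowest one.

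A few genes of that list were singled out after their values were seen. *Gata4*, a zinc finger factor that acts with TBX5, had 20.1 and 71.5 normalized counts in L49-3 against 172.6 to 334.5 in the other libraries, and an adjusted p of 0.0687 from edgeR for the embryos. Like *Tbx20*, it was lower on the left of L49-3, by a log2 ratio of -1.79. *Aldh1a2*, the enzyme that makes retinoic acid in the posterior field, had 130.1 and 94.7 against 203.4 to 304.4, with an adjusted p of 0.0532. *Isl1*, a factor of the second heart field, was the gene with both L49-3 libraries above the other 6, at 145.5 and 169.5 against 91.6 to 123.1.

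Of 12 other T-box genes, 3 were tested, *Tbx1*, *T* and *Mga*. *Tbx4*, *Tbx10* and *Tbx21* had 0 reads. *Tbx1*, a factor of the anterior second heart field, had 179.6 and 162.9 normalized counts in L49-3 against 59.3 to 167.5 in the other libraries, and a log2 difference of 0.42 ± 0.23 (standard error). Among the T-box genes tested, low values in both L49-3 libraries were found for *Tbx5*, *Tbx20* and *Tbx2*, and not for *Tbx3*, *Tbx1*, *T* or *Mga*.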

How the data were processed

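The authors deposited raw counts of reads for each gene in 8 libraries. According to the methods and the submitters' processing notes, polyA RNA was made into oriented libraries, reads were mapped to GRCm38 with HISAT2, duplicates were excluded and the remaining reads were counted with featureCounts, of versions not given in the sources used here. Removal of duplicates lowers the total counts to 1147446 to 3520753 per library, and intervals and limits cover counting error only.

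Identifiers were matched to GENCODE vM21 of GRCm38 (48144 of 48526 had a symbol), and promoter sequences came from RefSeq. Genes that reached 20 DESeq2-normalized counts in 4 or more libraries, 9744 in all, were fitted by the quasi-likelihood method of edgeR 4.0.16 (R 4.3.3) after TMM normalization, with terms for embryo and side and Benjamini-Hochberg adjustment over all of them. Log2 ratios within an embryo used CPM with a pseudocount of 0.5. Intervals of ratios are exact 95% intervals from counts. Left and right libraries are paired because they come from the same embryo. Their deviations from the side means correlated at 0.165, 0.190, -0.016 and 0.437 in L29-3, L43-5, L46-8 and L49-3. Left and right libraries of different embryos correlated at -0.389 to 0.255. The left library of L46-8 correlated at 0.255 with the right one of L29-3 and at 0.229 with that of L43-5, more than with its own. The right library of L46-8 correlated at 0.200 with the left one of L49-3, also more than with its own. The left library of L29-3 correlated at 0.191 with the right one of L43-5, also above its own pair. No pair of libraries was a duplicate. P-values speak of these 4 embryos, each with 1 library a side.

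The members and lists were chosen with earlier results of these data known. All members are named, with the 3 genes nearest in profile to each member with an adjusted p under 0.05 for the embryos, and companion and T-box genes with such a p for either test, of which there were none. Those named beyond this were chosen after their values were seen. Alternatives were DESeq2 size factors, library size, no filter, a minimum of 10 reads throughout, DESeq2 1.42.0, limma-voom (limma 3.58.1), no block, and each embryo left out. The methods were also run on simulated counts, in which the side difference did not vary between embryos. That run does not bear on the calls of the members, whose side ratios did vary. A companion gene is not reported here by name.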

Additional observations from a re-analysis of the deposited data

Results flagged for a closer look

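Among the values of single genes, *Tbx20* on the left side was set apart by 1 library. The left library of L49-3 had 23.22 normalized counts, against 239.9 to 266.7 in the other 3 left libraries, and the gap to its nearest neighbour was 0.89 of the whole range of the 4. A test of this kind picks out about 1 in 20 groups by chance, and each of the 10 genes was examined on both sides.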

How the results depend on the processing

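Leaving out each embryo in turn gave 0 to 4 members past the study's threshold for the sides, with *Hand1* alone without L29-3 and *Tbx5*, *Foxf1*, *Tbx20* and *Tbx2* without L46-8. The log2 fold change between the sides then ranged from -0.48 to 0.02 for *Tbx5*, -0.33 to 0.48 for *Mab21l2*, -0.14 to 0.93 for *Hand1*, -0.04 to 0.41 for *Osr1*, -0.84 to 0.22 for *Tbx2* and -0.28 to 0.31 for *Tbx3*, the sign turning without L43-5 for *Tbx5* and *Tbx2* and without L46-8 for the other 4. For the embryos, 0 genes (without L49-3) to 236 (without L46-8) and 0 to 5 members were called, *Tbx5* and *Hand1* without L29-3. Without a filter, 687 of 23873 genes and 2 members (*Hand1* and *Foxf1*) passed the threshold for the sides, and 641 of 23873 genes and 5 members were called for the embryos. DESeq2 gave 59 genes for the sides and 48 for the embryos, limma-voom 4 genes and 0 members for the embryos, and a minimum of 10 reads in every library 9 genes. The cause of these shifts was not tested. With no replicate block, which leaves the sides of an embryo unpaired, 233 genes and 0 members passed the threshold for the sides. *Tbx5* was called for the embryos in 10 of 12 settings, its adjusted p reaching 0.116 with limma-voom and 0.980 without L49-3. The order of levels per kb moved for 6 members with the mean transcript length and for 6 by reads per gene. Depth limits *Mab21l2*, *Tbx2*, *Tbx18* and *Wt1*, with at most 8 reads in a library of L49-3.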
